A study of Mus musculus with 12 samples.

Results

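The genes described here are the zinc finger genes of the mouse whose symbol runs from Zfp900 to Zfp999, called Zfp9xx genes below. They were chosen by their symbol in the deposited RNA-seq table, which gave 32 genes among 24918 gene entries. No measured value entered this rule, though earlier results of these data were known when it was set. The lowest number present was 930 (Zfp930) and the highest was 964 (Zfp964). RNA-seq and ATAC-seq had been made from embryos of NSA(CF-1) females and B6SJLF1/J males, taken as pronuclear embryos 16 to 20 h after hCG, cultured at 5% O2 and collected as 2-cell embryos 46 h after hCG. In the IWR1 group the medium held 50 µM IWR1-endo, an inhibitor of tankyrase, which is a poly-ADP-ribosyltransferase. In the DMSO group it held the vehicle of the inhibitor. Each group had 4 RNA-seq libraries, from independent collections of 10 embryos each, and 2 ATAC-seq libraries of 100 embryos each. The comparison asked which transcripts and open chromatin regions differ when tankyrase is inhibited in the embryo.

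Zinc finger genes of this kind belong to the largest family of DNA-binding factors in mammals. Their proteins read DNA with arrays of C2H2 fingers, and in many of them a KRAB domain recruits the corepressor Trim28 (KAP1), which brings in the histone H3 lysine 9 methyltransferase Setdb1, HP1 proteins and histone deacetylases and so silences retroelements, imprinted loci and some genes. In rodents many such genes are recent tandem duplicates that lie in clusters, and most have no described target. The 2-cell stage is the time when maternal RNA is cleared and the embryo's genome becomes active. Protein sequences were not analysed here, so which of the 32 genes carry a KRAB domain is not stated.

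Library totals ran from 17963977 to 32931800 counts in IWR1 and from 16606155 to 49672143 counts in DMSO. Several marker lists differed between the groups. The 8 markers of the 2-cell embryo summed to 2067 to 3305 CPM (counts per 1000000 counts of the library) in IWR1 libraries and 652 to 868 CPM in DMSO libraries, and 7 of 8 had a count in every library of each group. The 7 oocyte markers, whose RNA is largely maternal, summed to 14915 to 23311 CPM in IWR1 and 2273 to 4996 CPM in DMSO. Btg4 had 10223 FPKM (counts per kb of gene length and per 1000000 counts) in the mean of IWR1 and 1455 FPKM in that of DMSO, while Zp3 went the other way, with 56.1 ± 8.48 FPKM in IWR1 and 120.3 ± 22.4 FPKM in DMSO (SD, n = 4 each). The 4 trophectoderm markers summed to 63.8 to 82.8 CPM in IWR1 and 7.97 to 28.9 CPM in DMSO, where Cdx2 had no count, and the 4 sperm markers to 6.13 to 13.5 CPM in IWR1 and 0.181 to 1.106 CPM in DMSO, where Tnp2 had no count. In IWR1 libraries 5 to 8 these genes were near the floor too, with 4, 0, 19 and 0 counts of Cdx2 and 3, 0, 0 and 10 counts of Tnp2. The 7 cumulus and granulosa cell markers summed to 3.21 to 11.7 CPM in IWR1, with Amh and Inha at 0, and to 1.47 to 4.16 CPM in DMSO, with Amh and Fshr at 0, and the ranges overlapped. The blood markers had no count in either group. The part of maternal RNA, of these other cells and of the stage of the embryos in the results that follow was not tested. In whole embryos pooled for a library, less RNA in every embryo and fewer embryos with the RNA cannot be told apart.

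Nearly all Zfp9xx genes were detected in both groups. With at least 1 count as detection, 31, 32, 31 and 31 of the 32 genes were detected in IWR1 libraries 5, 6, 7 and 8, against 32, 31, 30 and 32 in DMSO libraries 1, 2, 3 and 4. With at least 10 counts, the numbers were 31, 32, 31 and 31 in IWR1 and 30, 31, 30 and 30 in DMSO. All 32 genes were detected in some library of each group. In every library of the group, 31 of 32 (96.9%) were detected in IWR1 and 30 of 32 (93.8%) in DMSO. Over all gene entries the same share was 59.9% in IWR1 and 54.9% in DMSO, and over the 304 other genes named Zfp and a number it was 82.9% in IWR1 and 82.2% in DMSO. Brought to the smallest total of 16606155 counts by exact rarefaction, the expected numbers were 31.0, 32.0, 31.0 and 31.0 in IWR1 libraries and 32.0, 31.0, 30.0 and 31.8 in DMSO libraries, so that the groups differed by no more than the libraries within them.

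Zfp945 and Zfp964, on chromosomes 17 and 8, account for every missing detection. Zfp945 had 0, 44, 0 and 0 counts in IWR1 libraries 5 to 8, against 1, 0, 0 and 15 counts in DMSO libraries 1 to 4. The 3 counts that an observed 0 still allows would put it at up to 0.0252, 0.0222 and 0.0165 FPKM in IWR1 libraries 5, 7 and 8, and at up to 0.0239 and 0.00917 FPKM in DMSO libraries 2 and 3. These limits cover counting error only. Zfp964 had 26, 75, 55 and 52 counts in IWR1 libraries, against 7, 42, 0 and 5 counts in DMSO libraries. Its 0 in DMSO library 3, one of the most deeply sequenced, allows up to 0.0349 FPKM. Zfp964 was low in most DMSO libraries, but DMSO library 2 lay among the IWR1 libraries, and it did not pass the test (log2 fold change 1.55 ± 1.21 SE).

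The level of the family spanned a wide range, as the plot of all 32 genes by library shows. By the mean of the 8 libraries, 17 genes stood at 10 FPKM or more, 10 between 1 and 10 FPKM and 5 under 1 FPKM. The 31 genes that could be tested had a median of 10.9 FPKM, against 4.27 FPKM for all 14994 tested genes and 2.29 FPKM for the 263 tested genes among the other Zfp genes. Zfp936 was the most abundant, at a mean of 203 FPKM over the 8 libraries, and was followed by Zfp951 at 122 FPKM, Zfp958 at 88.9 FPKM and Zfp961 at 85.5 FPKM. The ranking differed between the groups. In IWR1, Zfp951 led with a mean of 170.0 FPKM, whereas in DMSO Zfp936 led with a mean of 340.2 FPKM.

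**Figure D1:**
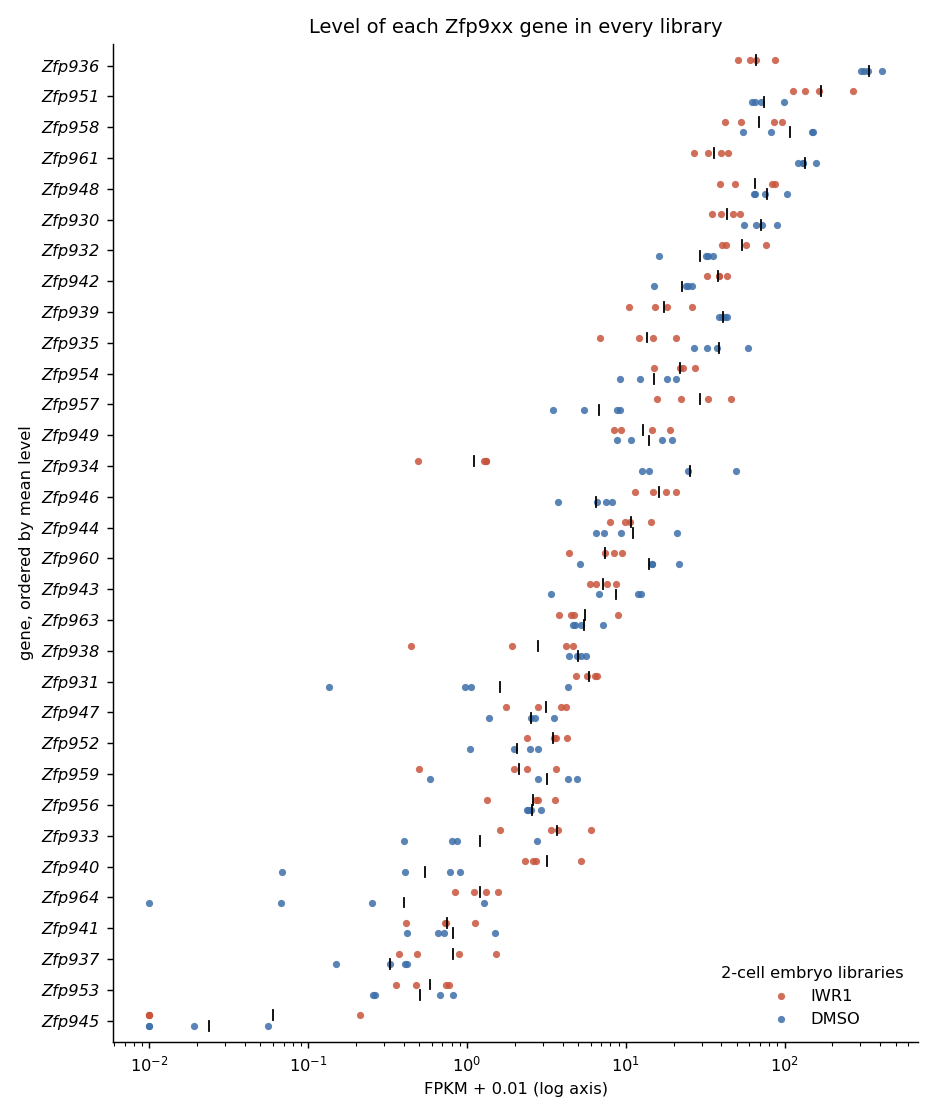
Level of each of the 32 Zfp9xx genes in the 4 IWR1 libraries (red, upper row of each gene) and the 4 DMSO libraries (blue, lower row), as FPKM + 0.01 on a log axis, with a black tick at each group mean. Zfp936 lies at 50.8 to 86.6 FPKM in IWR1 and 305 to 409 FPKM in DMSO, while most genes show overlapping rows.

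The comparison of IWR1 with DMSO found both directions among the Zfp9xx genes. Zfp936, Zfp961, Zfp934, Zfp935 and Zfp939 were lower in all IWR1 libraries than in any DMSO library, and Zfp951, Zfp957, Zfp946, Zfp942 and Zfp940 were higher in all of them. With the quasi-likelihood test of edgeR, Benjamini-Hochberg adjustment over the 14994 tested genes and a threshold of 0.05, 6 of the 31 tested genes were higher in IWR1, 7 were lower and 18 did not pass. Over all tested genes 23.3% were higher and 25.4% lower, and 48.7% passed in either direction, so the 41.9% of tested Zfp9xx genes that passed lay near the share over all genes. Among the other Zfp genes 35 of 263 were higher and 70 were lower. The median log2 fold change was -0.17 over the tested Zfp9xx genes, -0.11 over the other Zfp genes and 0.17 over all tested genes. Scaling by library totals in place of TMM moved the median of all genes to 0.34 and that of the Zfp9xx genes to 0.01, so the sign of the family's median depends on the scaling. All 4 IWR1 libraries lay above all 4 DMSO libraries in FPKM for 7 of the 32 genes and below them for 6, with 19 overlapping. Over all tested genes these shares were 28.3% above and 22.0% below. The values are relative to the rest of each library and give no absolute amount.

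**Figure D2:**
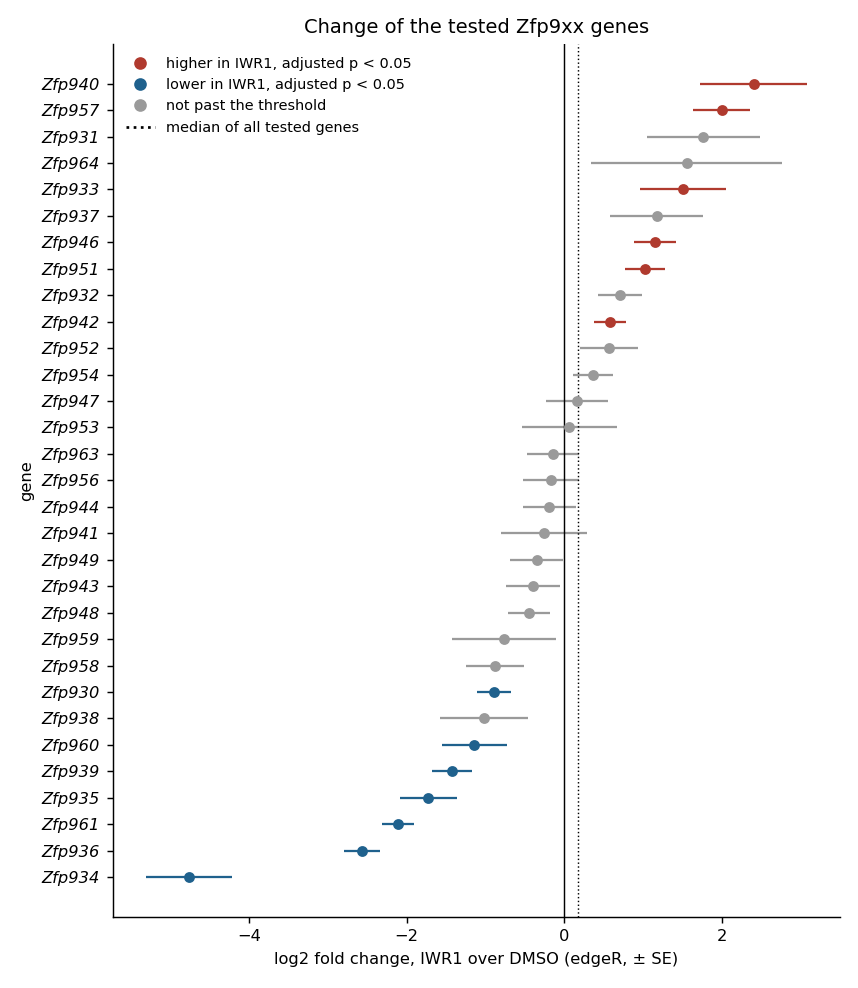
The log2 fold change, IWR1 over DMSO, of the 31 tested Zfp9xx genes with its standard error from edgeR, ordered by size, with the 6 genes called higher in red, the 7 called lower in blue and the others in grey. Zfp934, at -4.76, lies far below the rest, and the dotted line at 0.17 marks the median of all tested genes.

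Among the genes that fell, Zfp936 carried the most RNA. Zfp936 (gene ID 668620, GRCm38.p6 chromosome 7, 43114166 to 43192109, plus strand) stood at 60.1, 50.8, 86.6 and 66.2 FPKM in IWR1 libraries 5 to 8, against 305, 314, 409 and 334 FPKM in DMSO libraries 1 to 4. Every IWR1 library was far below every DMSO library, and the spread within a group was small beside the gap. Its mean was 65.9 ± 15.1 FPKM in IWR1 and 340.2 ± 47.4 FPKM in DMSO (SD, n = 4 each), with a log2 fold change of -2.56 ± 0.23 SE and an edgeR adjusted p of 1.11e-05.

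Zfp936 also set the sum of the family. Over all 32 genes, the counts summed to 1697, 1594, 2072 and 2428 CPM in IWR1 libraries 5 to 8, against 2646, 2843, 3459 and 2873 CPM in DMSO libraries 1 to 4, so that every IWR1 sum was below every DMSO sum. Zfp936 alone made up 11.0%, 9.89%, 13.0% and 8.45% of that sum in IWR1, against 35.7%, 34.2%, 36.7% and 36.0% in DMSO. Without Zfp936 the sums were 1511, 1436, 1804 and 2223 CPM in IWR1 and 1702, 1871, 2191 and 1839 CPM in DMSO, and the groups overlapped.

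**Figure D3:**
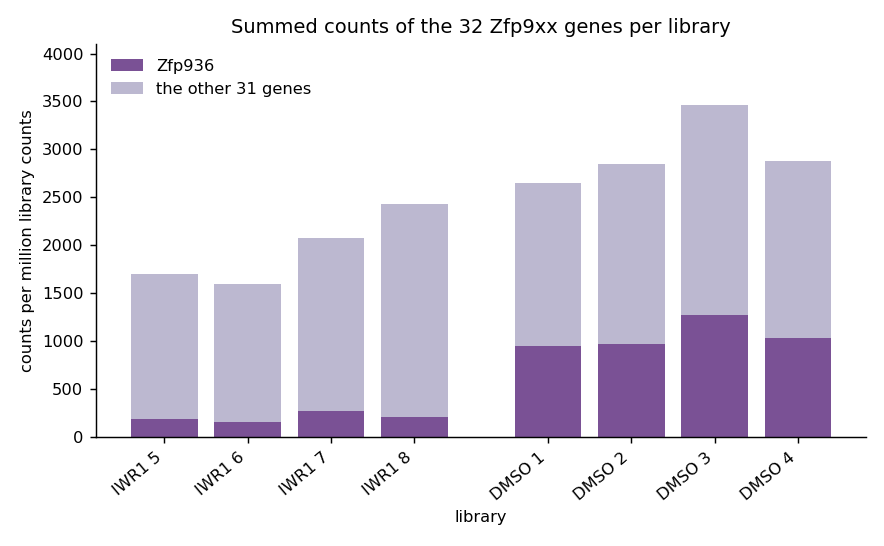
Summed counts of the 32 Zfp9xx genes per 1000000 library counts in the 4 IWR1 libraries (left) and the 4 DMSO libraries (right), with the part of Zfp936 in dark purple and that of the other 31 genes in light purple. The whole bars are lower in every IWR1 library, and the light parts, 1436 to 2223 CPM in IWR1 and 1702 to 2191 CPM in DMSO, overlap.

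The fall of Zfp934 was the largest on the log2 scale. Zfp934 (gene ID 77117, chromosome 13, 62516795 to 62579321) stood at 1.28, 1.31, 0.482 and 1.30 FPKM in IWR1 libraries, against 12.7, 13.9, 49.5 and 24.5 FPKM in DMSO libraries. All IWR1 libraries held 272 counts of it together, and all DMSO libraries 10106. DMSO libraries 3 and 4 were higher than the other DMSO libraries, and the lowest of the 4 was still far above any IWR1 library. The mean was 1.09 ± 0.407 FPKM in IWR1 and 25.2 ± 17.1 FPKM in DMSO (SD, n = 4 each), and the log2 fold change was -4.76 ± 0.55 SE (edgeR adjusted p = 3.58e-05). Without DMSO library 3 it was -4.10. Its neighbour Zfp935 (gene ID 71508, chromosome 13, 62453016 to 62466852, minus strand) fell as well, with 12.2, 6.92, 14.8 and 20.7 FPKM in IWR1 and 26.7, 32.5, 58.8 and 37.3 FPKM in DMSO. No IWR1 library of Zfp935 reached the lowest DMSO library (log2 fold change -1.72 ± 0.36 SE, edgeR adjusted p = 0.00175).

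Zfp961, Zfp939, Zfp930 and Zfp960 fell as well. Zfp961 (gene ID 234413, chromosome 8, 71951048 to 71970333, plus strand) stood at 27.0, 33.0, 43.9 and 39.9 FPKM in IWR1, against 131, 130, 158 and 121 FPKM in DMSO. It was low in every IWR1 library, and its mean of 36.0 ± 7.49 FPKM in IWR1 lay below 135 ± 16.2 FPKM in DMSO (SD, n = 4 each; log2 fold change -2.10 ± 0.20 SE, edgeR adjusted p = 1.53e-05). Zfp939 had 10.4, 15.2, 18.1 and 26.3 FPKM in IWR1 and 41.8, 40.5, 43.3 and 38.6 FPKM in DMSO. Its DMSO libraries lay close together and all IWR1 libraries lay below them (log2 fold change -1.43 ± 0.25 SE, edgeR adjusted p = 0.000579). Zfp930 had 47.2, 39.6, 35.1 and 52.2 FPKM in IWR1 and 72.5, 66.4, 89.5 and 55.4 FPKM in DMSO. The gap between the groups was narrow here, with the highest IWR1 library just under the lowest DMSO library (log2 fold change -0.89 ± 0.22 SE, edgeR adjusted p = 0.00483). Zfp960 had 8.41, 4.36, 9.44 and 7.38 FPKM in IWR1 and 5.10, 14.6, 21.8 and 14.7 FPKM in DMSO. It passed the test (log2 fold change -1.14 ± 0.41 SE, edgeR adjusted p = 0.0355), yet DMSO library 1 lay among the IWR1 libraries, and without DMSO library 3 the log2 fold change was -0.76 and the call was lost.

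Among the genes that rose, Zfp951 was the most abundant. Zfp951 (gene ID 626391, chromosome 5, 104802246 to 104860157, minus strand) stood at 134, 113, 165 and 268 FPKM in IWR1 libraries 5 to 8, against 71.3, 98.7, 65.1 and 62.5 FPKM in DMSO libraries 1 to 4. All IWR1 libraries were higher, with library 8 well above the other 3. Its mean was 170.0 ± 69.1 FPKM in IWR1 and 74.4 ± 16.6 FPKM in DMSO (SD, n = 4 each; log2 fold change 1.02 ± 0.25 SE, edgeR adjusted p = 0.0052). Zfp957 (gene ID 105590, chromosome 14, 79212355 to 79247367, minus strand) had 45.9, 33.1, 22.1 and 15.7 FPKM in IWR1 and 9.17, 8.81, 3.49 and 5.46 FPKM in DMSO. The IWR1 libraries differed among themselves by a wide margin and all exceeded the DMSO libraries (log2 fold change 1.99 ± 0.36 SE, edgeR adjusted p = 0.000693).

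Zfp940, a gene of low level on chromosome 7, rose the most. It had 2.70, 2.58, 5.18 and 2.30 FPKM in IWR1 and 0.893, 0.400, 0.776 and 0.0583 FPKM in DMSO, from 835 counts in all IWR1 libraries and 176 in all DMSO libraries. The groups did not overlap (log2 fold change 2.40 ± 0.68 SE, edgeR adjusted p = 0.0112). Zfp933 had 3.38, 3.73, 1.59 and 6.03 FPKM in IWR1 and 0.851, 2.74, 0.795 and 0.389 FPKM in DMSO. DMSO library 2 lay above the lowest IWR1 library. Its log2 fold change was 1.51 ± 0.55 SE (edgeR adjusted p = 0.0373), and without DMSO library 2 it was 2.21.

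Some calls lay next to the threshold of 0.05. Just inside it lay Zfp960 and Zfp933, both given above, and the call of Zfp933 was lost without any one of IWR1 libraries 5, 6 and 8 and DMSO libraries 1, 3 and 4. The call of Zfp960 was lost without any one of the same IWR1 libraries and of DMSO libraries 2, 3 and 4. Just outside lay Zfp932 and Zfp931. Zfp932, which in mouse embryonic stem cells is known with its paralog Gm15446 as a repressor of endogenous retroviruses, had 56.9, 43.0, 40.1 and 75.8 FPKM in IWR1 and 32.1, 33.0, 35.5 and 16.3 FPKM in DMSO. All IWR1 libraries were higher, and the difference missed the threshold (log2 fold change 0.71 ± 0.28 SE, edgeR adjusted p = 0.0525). It passed in 7 of 16 alternative fits, among them DESeq2 (adjusted p = 0.0223), and had an adjusted p of 0.0228 in the authors' deposited table. Zfp931 had 6.38, 4.81, 6.53 and 5.66 FPKM in IWR1 and 1.05, 4.32, 0.966 and 0.124 FPKM in DMSO, where DMSO library 2 came close to the IWR1 libraries. It missed the threshold as well (log2 fold change 1.76 ± 0.71 SE, edgeR adjusted p = 0.0583), and without DMSO library 2 its log2 fold change was 2.82 at an edgeR adjusted p of 0.00542. Zfp958, the third most abundant gene, had 53.0, 41.9, 96.1 and 85.1 FPKM in IWR1 and 54.9, 81.7, 148 and 150.0 FPKM in DMSO. Its groups overlapped (log2 fold change -0.88 ± 0.37 SE, edgeR adjusted p = 0.0645). It passed in 4 of 16 alternative fits, among them that without DMSO library 1 (log2 fold change -1.12, edgeR adjusted p = 0.0175).

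The direction of the calls differed with the level of the gene, in the Zfp9xx genes and over the whole table. Of the 17 Zfp9xx genes at 10 FPKM or more, 4 were higher and 7 lower in IWR1 with a median log2 fold change of -0.45. Over all tested genes at that level, 28.0% were higher and 45.5% lower, with a median of -0.37. Of the 14 tested Zfp9xx genes under 10 FPKM, 2 were higher and 0 lower with a median of 0.11, against 20.9% higher, 14.9% lower and a median of 0.39 over all tested genes at that level. At an unadjusted p under 0.05 edgeR likewise had 0 of these 14 lower, and so did DESeq2 after adjustment. Zfp938, Zfp959, Zfp941 and Zfp953, all in the lower class, stood at 0.493 to 5.02 FPKM in the mean of either group and did not pass.

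**Figure D4:**
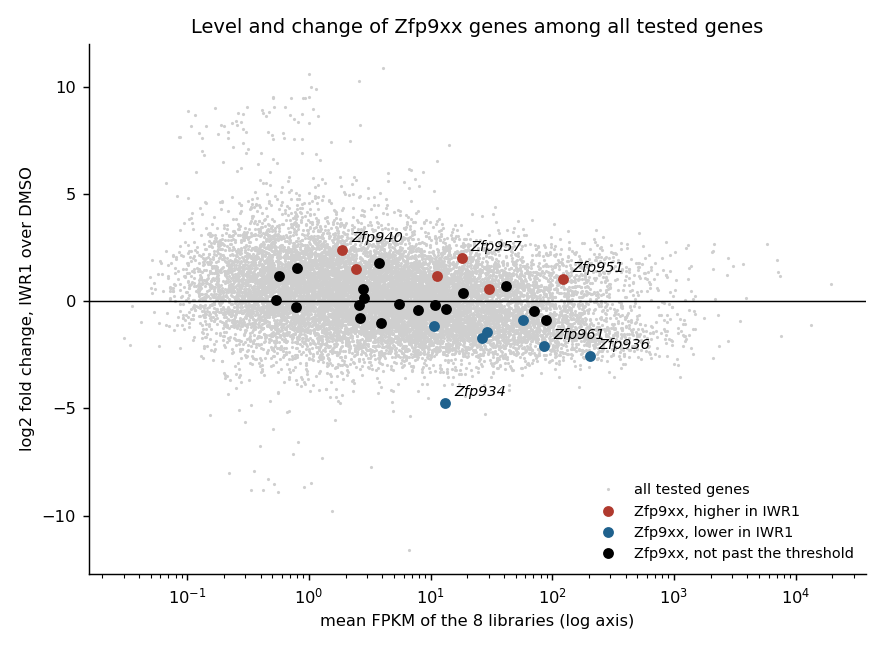
The log2 fold change, IWR1 over DMSO, against the mean FPKM of the 8 libraries on a log axis, for all 14994 tested genes (grey) and the 31 tested Zfp9xx genes (red higher, blue lower, black not past the threshold). The genes called lower all lie at 10 FPKM or more, where the median of all tested genes is -0.37 as well.

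Many genes of the silencing pathway in which KRAB zinc finger proteins act were lower in IWR1. Of 32 genes on the list of its machinery, 30 were in the table and tested, and 1 was higher, 16 lower and 13 did not pass, with a median log2 fold change of -0.94. Over all tested genes 23.3% were higher and 25.4% lower, and 45.5% were lower among those at 10 FPKM or more. Fam208a and Fam208b were not analysed here, and the list was chosen with earlier results of these data known. One entry of the list, 2310035C23Rik, has no role known to belong there and did not pass. Trim28, the corepressor that KRAB domains recruit, stood at 6.89, 9.28, 12.3 and 14.1 FPKM in IWR1, against 27.6, 23.1, 28.3 and 33.5 FPKM in DMSO, with no overlap (log2 fold change -1.60 ± 0.24 SE, edgeR adjusted p = 0.00021). Setdb1, the histone methyltransferase, averaged 5.09 ± 0.724 FPKM in IWR1 and 8.81 ± 1.54 FPKM in DMSO (SD, n = 4 each; log2 fold change -0.98 ± 0.22 SE, edgeR adjusted p = 0.00319). Pphln1, a subunit of the HUSH silencing complex, had a log2 fold change of -1.76, and Smarcad1, a chromatin remodeller that binds Trim28, of -2.33. That of Cbx5, the gene of HP1 alpha, was -1.80, and that of Sumo2, a small modifier attached to Trim28, was -2.78. Not every gene of these complexes fell. Mphosph8, also of HUSH, did not pass (log2 fold change -0.37 ± 0.18 SE, edgeR adjusted p = 0.107). Of the other HP1 genes Cbx3 was lower (-1.34 ± 0.30 SE), and Cbx1 did not pass (0.41 ± 0.29 SE, edgeR adjusted p = 0.263).

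Zinc finger genes with a described role differed among themselves. Of 14 on that list, 13 were tested, and 5 were higher, 2 lower and 6 did not pass, with a median log2 fold change of 0.59, against 23.3% higher and 25.4% lower over all tested genes. Rsl1 was too low to test, and this list too was chosen with earlier results of these data known. Zfp30 averaged 32.4 ± 5.59 FPKM in IWR1 and 4.71 ± 2.12 FPKM in DMSO (SD, n = 4 each; log2 fold change 2.56 ± 0.34 SE). Zfp69, a locus of diabetes susceptibility in mice, had a log2 fold change of 1.30, Zfp819, a partner of Trim28, of 1.92, and Gm15446, the paralog of Zfp932, of 1.20. Zfp445, which keeps the methylation of imprints together with Zfp57, averaged 2.74 ± 0.733 FPKM in IWR1 and 6.99 ± 0.861 FPKM in DMSO (log2 fold change -1.55 ± 0.26 SE, edgeR adjusted p = 0.000395). Zfp708, a repressor of retroelements, also fell, with a log2 fold change of -1.68 ± 0.36 SE.

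Position grouped some of the genes, which lie on 11 chromosomes. Chromosome 17 held 10, chromosomes 7 and 8 held 5 each, and chromosome 13 held 3. With neighbours less than 1 Mb apart counted together, 7 genes formed a cluster on chromosome 17 (21565816 to 22867309), 3 formed one on chromosome 8 (69209018 to 69749962), Zfp935 and Zfp934 formed a pair on chromosome 13 and 20 stood alone. In the chromosome 17 cluster Zfp942 and Zfp946 rose, 0 of the 6 tested genes fell by edgeR (0 at an unadjusted p under 0.05 and 0 by DESeq2), and the median log2 fold change was -0.01. For comparison, 23.3% of all tested genes were higher and 25.4% lower, and 6 genes are too few to differ clearly from these shares. Zfp946 had 14.8, 17.8, 11.4 and 20.6 FPKM in IWR1 and 8.18, 7.46, 6.54 and 3.72 FPKM in DMSO, with all IWR1 libraries higher (log2 fold change 1.15 ± 0.27 SE, edgeR adjusted p = 0.00367). Zfp942 had 32.5, 43.6, 38.3 and 38.5 FPKM in IWR1 and 24.6, 24.0, 26.1 and 15.0 FPKM in DMSO. The groups were separate and the change was small (log2 fold change 0.58 ± 0.20 SE, edgeR adjusted p = 0.0308), and its call was lost without any one of IWR1 libraries 6 and 7 and DMSO libraries 1, 2 and 4.

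Genes of other names lie among these. Between the ends of the chromosome 17 cluster lie 11 genes that are not Zfp9xx genes, of which 9 were tested. Of these, 2210404O09Rik, which RefSeq names Zfp995, was higher (log2 fold change 1.60), and Zfp229 and Gm10509 were lower (log2 fold changes -2.17 and -0.77). In the chromosome 8 cluster Zfp930 fell, while Zfp963 and Zfp964 did not pass, and of 4 other genes between its ends Zfp868 and Zfp869 were lower (log2 fold changes -1.87 and -0.79). Around the chromosome 13 pair, Gm3604 and 6720489N17Rik, within 250 kb of it, were lower too (log2 fold changes -1.59 ± 0.40 SE and -1.37 ± 0.20 SE, edgeR adjusted p = 0.00602 and 0.000181). The 4 tested genes from Gm3604 to 6720489N17Rik thus all fell, where 25.4% of all tested genes were lower. Gm5141, a further tested gene within 250 kb of Zfp934, did not pass (log2 fold change -0.28 ± 0.49 SE, edgeR adjusted p = 0.653). Around other called genes the tested neighbours within 250 kb were mixed. Zfp961 and Zfp936 fell, with 4 higher and 3 lower of 9 neighbours and 1 higher and 3 lower of 6. Zfp957 and Zfp940 rose, with 0 higher and 4 lower of 8 neighbours and 2 higher and 1 lower of 11. These neighbours were named after their values were seen. The sources used here do not say how reads that match several such genes were counted, so the counts of near-identical neighbours are uncertain.

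**Figure D5:**
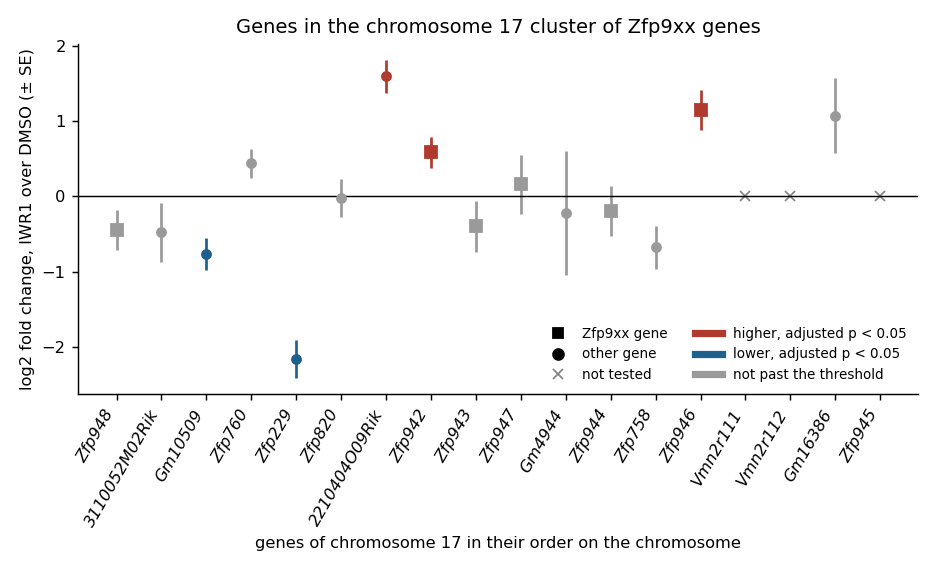
The log2 fold change, IWR1 over DMSO, with its standard error for the 18 genes of the chromosome 17 cluster in their order along the chromosome, with squares for Zfp9xx genes, circles for others and crosses for genes not tested. Genes called higher (red), called lower (blue) and not past the threshold (grey) alternate, from -2.17 for Zfp229 to 1.60 for 2210404O09Rik.

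Promoter windows were taken from RefSeq (GRCm38.p6), from 250 bases before to 50 bases after a gene's start. They were found for 29 of the 32 genes, in 35 windows, and not for Zfp930, Zfp934 and Zfp960. Windows of Zfp942 and Zfp944, both on the minus strand of chromosome 17, are shown first because they share an identical run of 207 bases, printed in capitals, at bases 69 to 275 of the Zfp942 window (chr17:21962415-21962714) and bases 94 to 300 of the Zfp944 window (chr17:22361351-22361650).
Zfp942: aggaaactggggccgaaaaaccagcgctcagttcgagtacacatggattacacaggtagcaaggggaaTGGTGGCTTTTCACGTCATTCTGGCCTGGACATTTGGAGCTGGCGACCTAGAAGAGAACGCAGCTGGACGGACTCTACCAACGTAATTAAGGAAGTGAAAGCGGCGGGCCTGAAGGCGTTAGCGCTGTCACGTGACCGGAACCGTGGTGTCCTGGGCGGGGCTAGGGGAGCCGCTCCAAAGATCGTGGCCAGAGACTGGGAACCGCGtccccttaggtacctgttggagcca
Zfp944: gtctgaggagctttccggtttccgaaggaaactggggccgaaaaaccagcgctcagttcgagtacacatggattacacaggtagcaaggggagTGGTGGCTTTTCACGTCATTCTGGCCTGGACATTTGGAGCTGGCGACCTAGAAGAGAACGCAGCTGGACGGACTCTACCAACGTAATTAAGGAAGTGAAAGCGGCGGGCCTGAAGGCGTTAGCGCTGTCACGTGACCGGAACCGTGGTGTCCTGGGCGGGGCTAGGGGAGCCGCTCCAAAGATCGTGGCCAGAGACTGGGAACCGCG
Read on the strand of each gene, the next longest run shared by windows of different Zfp9xx genes had 25 bases (Zfp946 and Zfp947). The RNA calls of the pair were not alike, since Zfp942 passed the test and Zfp944 did not, with 8.00, 10.6, 9.81 and 14.5 FPKM in IWR1, against 21.1, 9.29, 6.50 and 7.27 FPKM in DMSO (log2 fold change -0.19 ± 0.33 SE, edgeR adjusted p = 0.66). A test of the difference between them was not run. Zfp942 and Zfp943 start head to head, and their windows overlap by 194 bases on opposite strands. Zfp943 averaged 7.19 ± 1.22 FPKM in IWR1 and 8.63 ± 4.34 FPKM in DMSO (SD, n = 4 each) and did not pass.

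Of 7 short motifs searched on both strands with no mismatch, none containing another, the CCAAT box was the most frequent in these windows. Its letters CCAAT, or ATTGG on the other strand, which the factor NF-Y is known to bind, were in the windows of 19 of 29 Zfp9xx genes (65.5%), against 42.3% of the 17906 genes of the table with a window and 47.2% of the other Zfp genes. They were in the windows of 4 of 4 genes called lower that have one, 2 of 6 called higher and 13 of 18 not called. Some of the windows with these letters share sequence, with identical runs of 21 bases in Zfp931 and Zfp951 and in Zfp938 and Zfp959. The genes counted are therefore not independent of each other. To show the letters in place, 4 windows chosen because they hold them follow with it in capitals, those of Zfp936 (chr7:43177340-43177639, plus strand), Zfp961 (chr8:71950816-71951115, plus strand), Zfp935 (chr13:62466763-62467062, minus strand), which fell, and Zfp951 (chr5:104859978-104860277, minus strand), which rose.
Zfp936: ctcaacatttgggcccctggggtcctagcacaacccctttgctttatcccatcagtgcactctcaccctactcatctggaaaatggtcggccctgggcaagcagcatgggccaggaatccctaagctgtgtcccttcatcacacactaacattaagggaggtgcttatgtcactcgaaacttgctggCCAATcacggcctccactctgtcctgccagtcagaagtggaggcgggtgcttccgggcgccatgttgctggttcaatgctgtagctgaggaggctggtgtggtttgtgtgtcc
Zfp961: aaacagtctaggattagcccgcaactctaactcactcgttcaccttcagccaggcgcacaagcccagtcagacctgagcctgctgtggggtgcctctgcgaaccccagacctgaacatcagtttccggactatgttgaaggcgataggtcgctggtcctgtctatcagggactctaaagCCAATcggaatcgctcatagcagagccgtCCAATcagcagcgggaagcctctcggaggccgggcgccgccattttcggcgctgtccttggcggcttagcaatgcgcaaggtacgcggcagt
Zfp935: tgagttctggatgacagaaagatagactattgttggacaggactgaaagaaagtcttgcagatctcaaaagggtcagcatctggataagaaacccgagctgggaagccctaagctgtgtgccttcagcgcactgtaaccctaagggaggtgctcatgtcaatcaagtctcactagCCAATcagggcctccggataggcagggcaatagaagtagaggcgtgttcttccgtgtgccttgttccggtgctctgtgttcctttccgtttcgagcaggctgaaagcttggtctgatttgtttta
Zfp951: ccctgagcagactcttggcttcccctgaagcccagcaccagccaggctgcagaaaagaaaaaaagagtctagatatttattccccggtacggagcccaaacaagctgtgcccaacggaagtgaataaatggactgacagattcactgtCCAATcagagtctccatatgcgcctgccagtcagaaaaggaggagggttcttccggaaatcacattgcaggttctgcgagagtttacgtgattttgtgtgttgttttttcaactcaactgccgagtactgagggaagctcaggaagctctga
Counted from the start of the gene, the box began at -63 in Zfp936, at -71 and -42 in Zfp961, at -75 in Zfp935 and at -102 in the first of the 2 windows of Zfp951. In windows not shown it began at -119 in Zfp940, which rose, and at -224, -103 and -75 in the first window of Zfp939, which fell. The window of Zfp957, which rose, holds no CCAAT.

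The other motifs were rarer. The E-box CACGTG, the site of Myc and Max, was in the windows of 6 of 29 genes (20.7%), against 9.16% of all genes, and all of these but Zfp933 lie in the chromosome 17 cluster (Zfp942, Zfp943, Zfp944, Zfp946 and Zfp947), where Zfp942, Zfp943 and Zfp944 share sequence. The ETS letters CCGGAAG were in 6 of 29 (20.7%), against 12.9% of all genes and 22.8% of the other Zfp genes. The TATA box TATAAA was in 0 of 29 genes, against 14.4% of all genes, and the NRF1 letters GCGCATGC in 0 of 29, against 3.98%. CTTTGA, the core letters of TCF and LEF sites, was in 3 of 29 (10.3%), against 16.7%, and the YY1 letters AAGATGG in 2 of 29 (6.90%), against 7.29%. A match of letters does not show that a factor binds. With the highest value among its windows taken for each gene, the median G+C content was 53.7%, against 57.3% for all genes. The median number of CpG dinucleotides, taken likewise, was 9, against 15 for all genes and 16 for the other Zfp genes.

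Open chromatin was compared through the authors' lists of ATAC-seq regions, 2345 higher and 1400 lower in IWR1, which carry no value per library. Within 10 kb of a gene, 1 of the 32 Zfp9xx genes (3.12%) had a region higher in IWR1, against 11.2% of the 24815 genes with a position and 17.1% of the other Zfp genes. By the same distance 4 of 32 (12.5%) had a region lower in IWR1, against 4.58% of all genes and 6.25% of the other Zfp genes. The regions lower in IWR1 lay within Zfp930 (chromosome 8, 69211561 to 69212561) and within Zfp939 (chromosome 7, 39468698 to 39470273), 1.941 kb from Zfp944 (chromosome 17, 22363369 to 22364369) and 8.711 kb from Zfp963 (chromosome 8, 69758673 to 69759673). The region of Zfp939 lies 19138 bases from its promoter window, and the annotation used gives no exons, so whether it is exonic or intronic is not stated. Zfp930 and Zfp939 were lower in RNA as well, with the values above. Zfp944 and Zfp963 did not pass the RNA test. The region near Zfp944 lies within its neighbour Zfp758, which did not pass (log2 fold change -0.68 ± 0.29 SE, edgeR adjusted p = 0.067). Zfp963 had 8.94, 4.52, 4.73 and 3.79 FPKM in IWR1 and 7.15, 4.76, 5.21 and 4.64 FPKM in DMSO. The region higher in IWR1 lay 9.883 kb from Zfp937, a gene at 1.52, 0.364, 0.879 and 0.475 FPKM in IWR1 and 0.139, 0.411, 0.397 and 0.320 FPKM in DMSO, which did not pass either (log2 fold change 1.17 ± 0.59 SE). The genes with the largest calls, Zfp934, Zfp936, Zfp961, Zfp957 and Zfp940, had no listed region of either kind within 10 kb, and the nearest one lower in IWR1 lay 13.243 kb from Zfp936.

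At an adjusted p under 0.05, a cut set here, the authors' deposited comparison had 8 genes higher and 7 lower in IWR1. It gave no adjusted p for 1 of the 32 genes. DESeq2 run on the same counts called 8 higher and 7 lower as well, where over all genes with an adjusted p it called 25.8% higher and 22.8% lower. The authors' own selection was stricter, with a lower adjusted p and a minimum fold change. It marked Zfp940, Zfp946, Zfp951 and Zfp957 as up. As down it marked Zfp934, Zfp935, Zfp936, Zfp939 and Zfp961.

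Names in the table are older than those of RefSeq, which gives a symbol from Zfp900 to Zfp999 to 27 further entries. Some of these entries repeat the same gene, as those of Gm8898 and Gm14431 do, which had no count. With these repeats counted, 18 of the 27 entries were found in every IWR1 library and 18 in every DMSO library. Because of the repeats, this share cannot be set beside that of the Zfp9xx genes. Of the 27 entries, 16 were tested, 3 were higher and 3 lower. The most abundant were Gm13152, now Zfp982, with a mean of 191 FPKM in IWR1 and 92.4 FPKM in DMSO (log2 fold change 0.88 ± 0.20 SE), and 2610305D13Rik, now Zfp979, with 165 FPKM in IWR1 and 100.3 FPKM in DMSO (log2 fold change 0.55 ± 0.16 SE). Together with the genes named so in the table, 9 would be higher and 10 lower of 47 tested. The shares over all tested genes were 23.3% higher and 25.4% lower. These entries are not counted among the Zfp9xx genes, and they were named after their values were seen. Of them, 2210404O09Rik, 3110052M02Rik and Gm4944 are among the 11 other genes of the chromosome 17 cluster.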

How the data were processed

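RNA-seq was measured in 4 IWR1 and 4 DMSO libraries of 10 embryos each, and ATAC-seq in 2 libraries per group. Per the submitters' processing notes, the build was mm10, with DESeq2, MACS2, featureCounts 1.5.0-p1, STAR 2.5.1b, Bowtie2 2.2.6, Trim Galore, cutadapt 1.11 and bcl2fastq named but given no role. Per the file headers, the authors deposited raw counts of each gene in each library, not normalized. FPKM of all 8 libraries was computed from these counts, using the library total and the authors' gene length, and differed from the FPKM values the authors deposited for DMSO by at most 2.62e-10. Log2 fold changes and p-values in the deposited table come from the authors' own DESeq2 comparison, per the file headers. The ATAC-seq lists hold the authors' regions with no value per library, so their depth is unknown, and their coordinates are printed as deposited.

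Since the IWR1 columns carry numbers 5 to 8 and the labels 1 to 4, they are known by group only, and 12 other per-library columns were not used. No label gives a batch, and independent collections served as replicates. The test was edgeR 4.0.16 (quasi-likelihood, R 4.3.3) with TMM scaling, filterByExpr, treatment as the only term, two-sided, and Benjamini-Hochberg adjustment over 14994 tested genes at 0.05, run on all genes after it was tested on simulated data. DESeq2 1.42.0 was an alternative, beside other scalings, filters, libraries left out, and the shallow or deep libraries alone. The standard error of a fold change is its size over the square root of F. Library totals of 16606155 to 49672143 counts set the precision, and limits for a count of 0 (3 counts) cover counting error only. CPM is counts per 1000000 of the library total.

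Positions and promoter sequences are RefSeq's for GRCm38.p6, the assembly of mm10, with 24815 entries (99.6%) matched by gene ID. The genes and lists were chosen with earlier results of these data known. Genes were named by a rule: up to 8 rises and 8 falls among called Zfp9xx genes that averaged 1 FPKM or more, the 4 most abundant, Zfp932, those with an ATAC-seq region within 10 kb, 2 on either side of the threshold, and, from the pathway lists, Trim28, Setdb1 and the 4 smallest adjusted p per direction. One gene this rule would name is not reported here. Others were named after their values were seen, to account for a count, a neighbour or a complex. Python 3.11.15, NumPy 2.4.6, SciPy 1.17.1, pandas 2.3.3 and Matplotlib 3.10.9 were used.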

Additional observations from a re-analysis of the deposited data

Results flagged for a closer look

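In 3 of the 64 groups of 4 libraries examined (32 genes in IWR1 and in DMSO), 1 library lay far from the other 3 by Dixon's test at 95%. Chance flags about 1 in 20 such groups. Zfp934 stood at 0.482 FPKM in IWR1 library 7, against 1.28 to 1.31 FPKM in the other IWR1 libraries. Zfp940 stood at 5.18 FPKM in the same library, against 2.30 to 2.70 FPKM in the others. Zfp945 stood at 0.202 FPKM in IWR1 library 6 and at 0 in the other IWR1 libraries. Without IWR1 library 7 the calls of Zfp934 and Zfp940 were kept, and Zfp945 was too low to test.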

How the results depend on the processing

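Of the 13 Zfp9xx genes called, 6 (Zfp934, Zfp936, Zfp961, Zfp935, Zfp939 and Zfp957) were called under all 16 alternatives run. Leaving out 1 library at a time gave 4 to 6 Zfp9xx genes higher and 6 to 8 lower, with a median log2 fold change from -0.24 to -0.07. Over all genes it gave 2940 to 3450 higher and 3438 to 3676 lower. With the shallow libraries alone (the 2 lowest totals of each group), 1906 genes were higher and 2088 lower of 15067 tested. Among them 2 of 31 Zfp9xx genes were higher and 5 lower, and 14 other Zfp genes were higher and 36 lower. Of the 30 machinery genes, 0 were higher and 12 lower. In the same fit 2 genes with a described role were higher and 1 lower, and the clusters on chromosomes 17 and 8 had 0 higher and 0 lower. With the deep libraries alone, 2063 genes were higher and 2802 lower of 15976 tested. Among them 3 of 32 Zfp9xx genes were higher and 7 lower, and 17 other Zfp genes were higher and 48 lower. Of the machinery genes, 1 was higher and 16 lower, and 2 genes with a described role were higher and 2 lower. The chromosome 17 cluster had 1 higher, the chromosome 8 cluster 0 lower, and the median of the Zfp9xx genes was 0.27. Both fits hold fewer samples. Leaving out 1 library gave 1 to 2 higher in the chromosome 17 cluster. The call of Zfp940 was lost with the deep libraries alone (edgeR adjusted p = 0.214), that of Zfp946 with the shallow ones alone (0.15), and those of Zfp930, Zfp942 and Zfp951 with either. The calls of Zfp933 and Zfp960 were lost with the shallow libraries (0.646 and 0.835), and that of Zfp960 also with library totals (0.0638). Some genes that did not pass turned direction, and the cause was not tested. Zfp937 had -0.10 with the deep libraries, Zfp944 0.28 without DMSO library 1 and 0.55 with the deep libraries, Zfp958 0.0925 with the shallow libraries, and Zfp963 0.0144 with library totals, 0.0201 without IWR1 library 8 and 0.18 with the shallow libraries. Zfp941, Zfp943, Zfp947, Zfp949, Zfp953, Zfp954 and Zfp956 changed sign under at least 1 alternative too. Of regions higher in IWR1, 3 of 32 Zfp9xx genes (9.38%, all genes 22.9%) had one within 50 kb and 0 overlapped one (all genes 6.84%). Of regions lower in IWR1, 6 (18.8%, all genes 10.8%, other Zfp genes 15.1%) had one within 50 kb and 2 (6.25%, all genes 2.76%) overlapped one. No paired analysis was possible because the IWR1 columns are numbered 5 to 8 and share no number with the DMSO columns. The planned description of protein features was not run, since protein sequences were not analysed here. Adding entries by their RefSeq symbol was chosen after seeing the data. Depth limits the genes under 1 FPKM most, whose counts come near 0.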
